A study of Mus musculus with 6 samples.

Results

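The genes described here are 5 of the 32285 genes counted: the chemokines Cxcl9 and Cxcl10 with their receptor Cxcr3, and the chemokine Cxcl16 with its receptor Cxcr6. Each was found by an exact match of its gene symbol in the feature list of every library. Cells were taken from mice with tumors grown from EMT6, a mammary carcinoma line of the mouse. One genotype was BALB/c labelled WT, and the other was labelled as deficient in Cysltr1, the gene of a receptor for cysteinyl leukotrienes. The tumors were common to both genotypes, and the strain background of the deficient mice, their age and any treatment are not given in the sources used here. Bone marrow was enriched for progenitors, and spleen and tumor were enriched for CD45, the surface protein of blood cells. There was 1 library per tissue and genotype, each from a pool of 3 mice, so no difference between libraries had a replicate check and no p-value is given. The questions were which cells of spleen and tumor carried transcripts of the ligands and of the receptors, and how the levels differed between the libraries of a tissue.

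CXCL9 and CXCL10 are small secreted proteins that interferons induce, and they draw cells that carry CXCR3, mainly activated T cells and natural killer cells. In lymphoid tissue and in tumors, dendritic cells, monocytes and macrophages are their usual makers. CXCL16 is made as a membrane protein on dendritic cells and macrophages, from which the proteases ADAM10 and ADAM17 release it. Its receptor CXCR6 is typical of natural killer T cells, of innate lymphoid cells and of T cells that settle in tissues.

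On the mouse build GRCm38 with the GENCODE M21 annotation, Cxcl9 (ENSMUSG00000029417) lay at chr5:92321347-92328079 and Cxcl10 (ENSMUSG00000034855) at chr5:92346638-92348889, both on the minus strand with 18558 bases between them. Cxcl16 (ENSMUSG00000018920) lay at chr11:70453983-70459984 on the minus strand, Cxcr3 (ENSMUSG00000050232) at chrX:101731535-101734269 on the minus strand, and Cxcr6 (ENSMUSG00000048521) at chr9:123806475-123811760 on the plus strand. The promoters of the neighbours Cxcl9 and Cxcl10 are shown because both ligands were higher in the same libraries below. The 250 bases before each transcription start, from RefSeq on GRCm38.p6, are written from 5′ to 3′ on the gene's own strand, chr5:92328080-92328329 for Cxcl9 and chr5:92348890-92349139 for Cxcl10. Capitals mark matches to an interferon-stimulated response element (GAAANNGAAA) and to the NF-kB consensus, both searched on both strands.
Cxcl9: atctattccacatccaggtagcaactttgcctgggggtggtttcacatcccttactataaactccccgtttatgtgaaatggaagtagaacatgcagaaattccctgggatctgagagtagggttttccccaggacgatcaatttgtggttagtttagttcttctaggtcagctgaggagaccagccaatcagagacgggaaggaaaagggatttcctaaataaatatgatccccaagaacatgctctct
Cxcl10: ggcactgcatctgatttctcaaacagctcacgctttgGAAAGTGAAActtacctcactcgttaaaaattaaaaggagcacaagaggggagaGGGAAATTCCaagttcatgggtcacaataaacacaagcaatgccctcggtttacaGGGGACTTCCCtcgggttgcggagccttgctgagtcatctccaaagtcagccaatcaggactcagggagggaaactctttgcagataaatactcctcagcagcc
In the Cxcl10 window, the interferon-stimulated response element matched at 213 to 204 bases before the start. The NF-kB consensus matched at 159 to 150 bases, and again at 104 to 95 and 103 to 94 bases, where the matches overlap. Of 32841 promoter windows of this length, 2.98% held the response element, 7.25% the NF-kB consensus and 0.164% both. The Cxcl9 window held neither, and no match to the gamma-activated site TTCNNNGAA, which 7.02% of windows held. These matches are descriptions of the letters in the windows, and no binding was measured. Only exact patterns were searched, so a window without a match may still hold an element of another spelling.

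Cells were kept after filters on genes, unique molecular identifiers (UMIs, each taken as 1 captured transcript), mitochondrial UMIs and doublets, which left 5018 to 8323 cells per library with median depths of 2350 to 12690.5 UMIs. Between 46 and 128 barcodes were shared by each pair of libraries. Of the barcodes that passed the other filters, 4.55% to 7.45% were removed as doublets. The cells of a tissue were clustered without the 5 genes and without Cysltr1, and clusters were called "like" a cell type from marker genes or left as numbers. Cxcl9, Cxcl10, Cxcl16 and Cxcr6 were each among the leading genes of a cluster (tumor 11, spleen 19, spleen 20 and 23, and spleen 15) although they took no part in forming it. Levels are UMIs of a gene scaled to the summed UMIs of a population (CPM), and all intervals are 95% intervals for counting error only. Because UMIs of these genes bunch in few cells, the cells with a UMI and the highest count in a cell are given as well for part of the populations. In bulk sums over a library, fewer cells of a type and less RNA per cell cannot be told apart. Cysltr1 itself went against the labels in 2 of 3 tissues: the library labelled deficient over that labelled WT was 5.10-fold (4.50 to 5.79) in marrow, 4.80-fold (4.19 to 5.52) in spleen and 0.716-fold (0.626 to 0.819) in tumor. In spleen neutrophil-like cells Cysltr1 had 3 UMIs in the library labelled WT and 491 in that labelled deficient. Genotypes are therefore given below as labels of libraries.

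A gene was compared in a population with at least 50 cells in each library of a tissue and at least 30 UMIs of the gene in both together, and at least 1.5-fold either way counts as past the fold. In spleen, Cxcl9 was past the fold and higher in the library labelled deficient in 5 of the 5 populations where it could be compared, and Cxcl10 in 7 of 8 with 1 lower. In tumor, Cxcl9 was higher in 3 of 3 populations, and Cxcl10 in 6 of 12 with 1 lower. A population with few Cxcl9 UMIs labelled WT could be compared only if the count labelled deficient was high. This held for spleen monocyte-like cells (1 and 633 UMIs), macrophage-like cells (2 and 112) and tumor cluster 11 (8 and 427). The Cxcl9 counts of 5 of 5 and 3 of 3 were thus largely set by this filter and are no support for a common direction. Cxcl16 was past the fold upward in 1 of 3 spleen populations and in 3 of 12 tumor populations, where 1 was lower. Cxcr3 was higher in 1 of 6 spleen populations and in 0 of 2 tumor populations, and Cxcr6 was higher in 1 of 4 in spleen and 1 of 2 in tumor, with 1 lower in each tissue. The share of all genes that were past the fold in each population is given beside its first call.

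**Figure D1:**
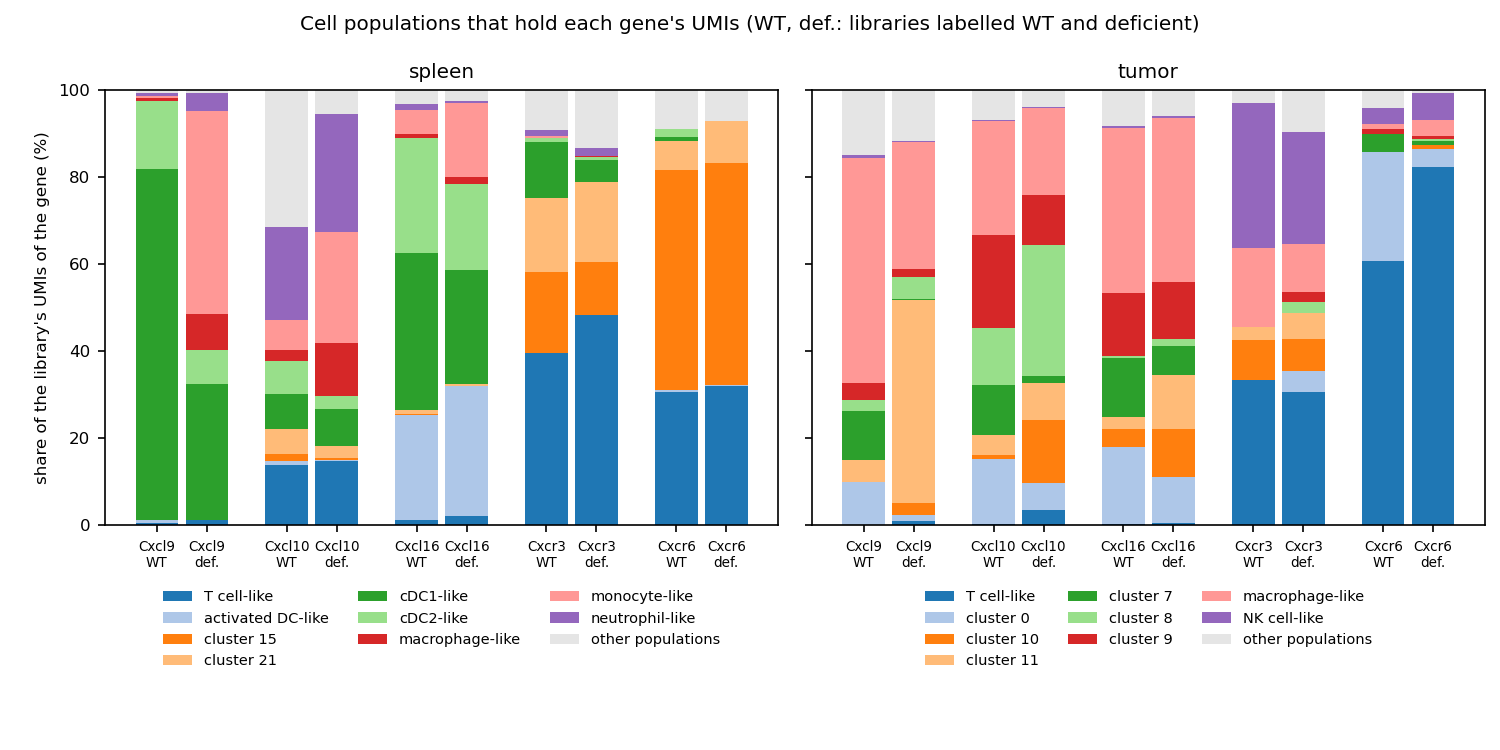
Share of each library's UMIs of a gene (y axis, percent) held by cell populations of spleen and tumor, with 1 bar per gene and library (x axis). The genes are Cxcl9, Cxcl10, Cxcl16, Cxcr3 and Cxcr6, and populations with small shares are pooled as other populations. In spleen, cDC1-like cells held 80.7% of Cxcl9 UMIs in the library labelled WT and 31.4% in that labelled deficient, where monocyte-like cells held 46.6%.

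Spleen Cxcl9 lay mainly in dendritic cell-like cells in the library labelled WT and was shared with monocyte-like and macrophage-like cells in the library labelled deficient. Over all kept cells, 274 UMIs were counted in the former and 1359 in the latter, or 7.47 and 38.1 CPM, a ratio of 5.10 (4.48 to 5.83). Of all 13743 genes compared, 13.7% were past the fold upward, and the median gene was 0.185 higher on the log2 scale. The UMIs sat in 70 of the cells labelled WT (0.841%) and in 122 of those labelled deficient (1.58%). With every cell thinned to 1000 UMIs, these shares were 0.212% and 0.653%.

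Cells like conventional dendritic cells of type 1 (cDC1-like cells), a kind that takes up dead cells and presents their antigens to CD8 T cells, carried Cxcl9 in a larger share of cells than any other spleen population. They were 1.66% of cells labelled WT and 1.14% of cells labelled deficient. Of 138 cells labelled WT, 53 had a UMI (38.4%), and of 88 labelled deficient 39 had one (44.3%), whereas 0.0359% and 0.371% of T cell-like cells had one. After thinning, the shares in the cDC1-like cells were 11.2% and 19.5%. Their level was 117 CPM labelled WT (102 to 133) and 335 CPM labelled deficient (304 to 369), a ratio of 2.87 (2.44 to 3.40), in a population where 7.23% of genes were past the fold upward. A single cell labelled deficient held 158 UMIs, and without the top cell of each library the log2 difference was 1.02 against 1.51 with it. Cells like conventional dendritic cells of type 2 (cDC2-like cells), which mainly address CD4 T cells, had 43 and 105 UMIs in 8 of 495 and 11 of 371 cells. Their levels were 12.8 and 40.6 CPM, a ratio of 3.18 (2.21 to 4.65), against 9.34% of genes past the fold upward. The top cell of each library held 33 of the 43 UMIs labelled WT and 55 of the 105 labelled deficient. A per-cell gate on markers gave 4.27 CPM in 133 cells labelled WT and 52.5 CPM in 78 cells labelled deficient.

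Monocyte-like cells had 1 Cxcl9 UMI in 133 cells labelled WT and 633 UMIs in 133 cells labelled deficient. The UMIs of the latter came from 19 cells, of which 15 had at least 3 and the highest had 130. The levels were 0.700 CPM (0.0177 to 3.90) and 539 CPM (498 to 583), and the ratio of 771 had an interval of 138 to 30485 because the library labelled WT had a single UMI. Of 7537 genes, 11.9% were past the fold upward. Macrophage-like cells went from 2 UMIs in 111 cells labelled WT to 112 UMIs in 193 cells labelled deficient, held by 2 and 19 cells. Their levels were 4.88 and 167 CPM, a ratio of 34.3 (9.27 to 286), against 8.35% of genes past the fold upward.

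Which of these classes held more depended on how cells were assigned. A per-cell gate on markers put 218 CPM in 117 monocyte-gated cells and 333 CPM in 200 macrophage-gated cells of the library labelled deficient. By clusters the monocyte-like cells were the higher, and by the gate the macrophages were. Neutrophil-like cells had 2 and 56 UMIs, a ratio of 60.3 (15.9 to 510.5) with 10.9% of genes past the fold upward, but 44 of the 56 lay in 1 cell. In the library labelled deficient the order of levels was monocyte-like, cDC1-like, macrophage-like, cDC2-like and neutrophil-like, with intervals that did not overlap between neighbours. In the library labelled WT the cDC1-like and cDC2-like levels stood apart from each other, and the macrophage-like interval (0.591 to 17.6 CPM) overlapped that of the cDC2-like cells.

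The markers of other cells moved in these classes as well. In monocyte-like cells the 10 monocyte markers were detected in both libraries, with a summed level of 5117 CPM in that labelled WT and 4727 in that labelled deficient. The neutrophil list summed to 6461 and 2377 CPM, the macrophage list to 1369 and 1606, with Cd5l at 0 in the library labelled WT, and the cDC1 list to 149 and 182. The B cell list summed to 58.8 and 224 CPM, the activated dendritic cell list to 49.0 and 134 and the natural killer cell list to 16.8 and 56.2. H2-Aa, a class II antigen presentation gene, was at 1607 and 4069 CPM. In macrophage-like cells the macrophage list summed to 29769 and 28710 CPM and the neutrophil list to 4412 and 1057. The part of these markers in the chemokine levels was not tested.

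**Figure D2:**
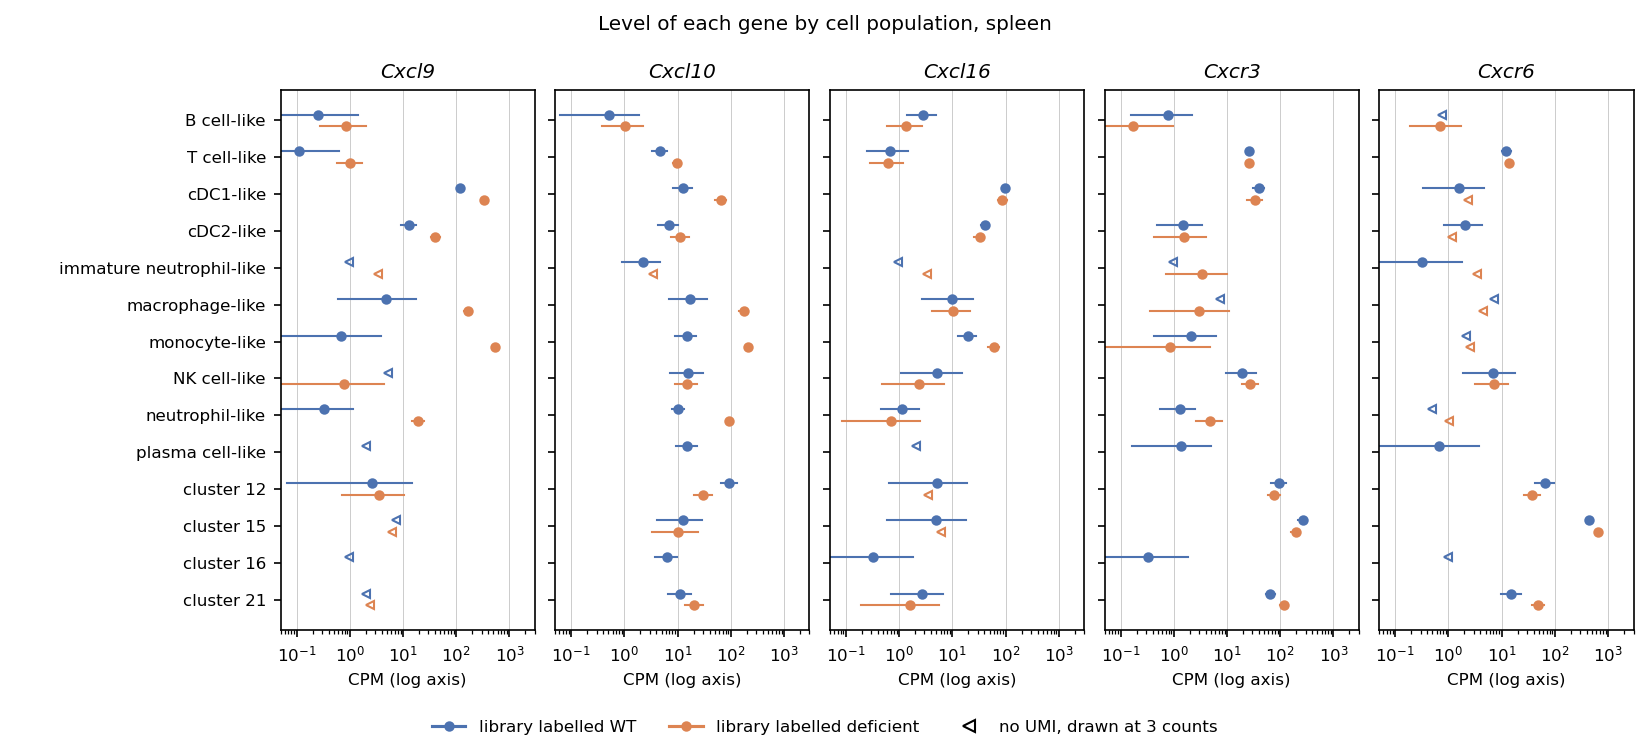
Level of each gene (CPM, log axis) in each spleen population with 95% Poisson bars, 1 symbol per library, where an open triangle marks no UMI and is drawn at the level of 3 counts. Cxcl9 in monocyte-like cells stands at 0.700 CPM labelled WT and 539 CPM labelled deficient, whereas Cxcl16 in cDC1-like cells stands at 97.7 CPM labelled WT and 86.6 CPM labelled deficient.

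Spleen Cxcl10 was spread over more populations than Cxcl9. The whole libraries held 299 and 959 UMIs, or 8.15 and 26.9 CPM, a ratio of 3.30 (2.89 to 3.77), in 115 and 160 cells. The top 1% of cells held 89.3% of UMIs in the library labelled WT and 90.8% in that labelled deficient. In monocyte-like cells, 21 UMIs in 7 cells labelled WT stood against 243 UMIs in 19 cells labelled deficient. Their levels were 14.7 CPM (9.10 to 22.5) and 207 CPM (182 to 235), a ratio of 14.1 (9.01 to 23.2). The top cell of each library held 13 of the 21 UMIs labelled WT and 115 of the 243 labelled deficient. Macrophage-like cells had 7 UMIs, all in 1 cell labelled WT, and 117 UMIs in 11 cells labelled deficient, with levels of 17.1 and 175 CPM and a ratio of 10.2 (4.81 to 26.0). Of the 117 UMIs, 51 lay in 1 cell. In the library labelled deficient the intervals of these classes overlapped (182 to 235 and 145 to 209 CPM).

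Neutrophil-like cells were 2367 of 8323 kept cells labelled WT and 1102 of 7707 labelled deficient, and few of them had a Cxcl10 UMI. They had 64 UMIs in 28 of 2367 cells labelled WT and 261 UMIs in 37 of 1102 cells labelled deficient, or 21.4% and 27.2% of each library's Cxcl10. The levels were 10.3 and 90.6 CPM, a ratio of 8.79 (6.66 to 11.7). Within the class, cluster 19 was picked out after its values were seen. It is led by the interferon response genes Rsad2, Ifit1 and Isg15, and Cxcl10 was itself among the genes that mark it. It comprised 41 cells labelled WT and 128 labelled deficient, with Cxcl10 in 3 and 15 of them, and held 22 and 171 of the class's UMIs. The other neutrophil clusters held 25 and 37 UMIs (cluster 3), 16 and 52 (cluster 4) and 1 in each library (cluster 11). As a reference, 0.717% of T cell-like cells labelled WT and 1.46% of those labelled deficient had a Cxcl10 UMI, against 1.18% and 3.36% of neutrophil-like cells.

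The dendritic cell-like classes carried Cxcl10 in few cells. The cDC1-like cells had 24 and 82 UMIs in 4 cells of each library, and 64 of the 82 lay in 1 cell. Their ratio was 5.09, and the log2 difference was 2.26 with every cell and 0.69 without the top cell of each library. The cDC2-like cells had 23 and 29 UMIs, a ratio of 1.64 (0.917 to 2.97), and the top cell of each library held 17 and 19 of them. T cell-like cells had 41 and 142 UMIs, a ratio of 2.08 (1.46 to 3.02), where 2.87% of genes were past the fold upward. Cluster 5, the T cell cluster led by Foxp3, held 18 and 97 of these UMIs. In cluster 12, unnamed but with T cell markers at 4653 and 5877 CPM and led by Xcl1, Ccl5 and Gzmk, Cxcl10 was lower in the library labelled deficient, with 35 UMIs against 26 and 92.1 against 30.6 CPM. That ratio was 0.332 (0.192 to 0.568), 7.17% of genes were past the fold downward, and 23 of the 35 UMIs lay in 1 cell. At the coarser clustering resolution of 0.5 the cluster that matched it was higher instead (log2 0.73). In cluster 21, led by the cell division genes Top2a and Mki67 and with T cell markers at 2158 and 3563 CPM, 17 and 26 UMIs gave a ratio of 1.84 (0.961 to 3.61) with 9.90% of genes past the fold upward, and 19 of the 26 lay in 1 cell, without which and the top cell labelled WT the log2 difference was -0.54. Natural killer cell-like cells were at 15.7 and 14.9 CPM.

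**Figure D3:**
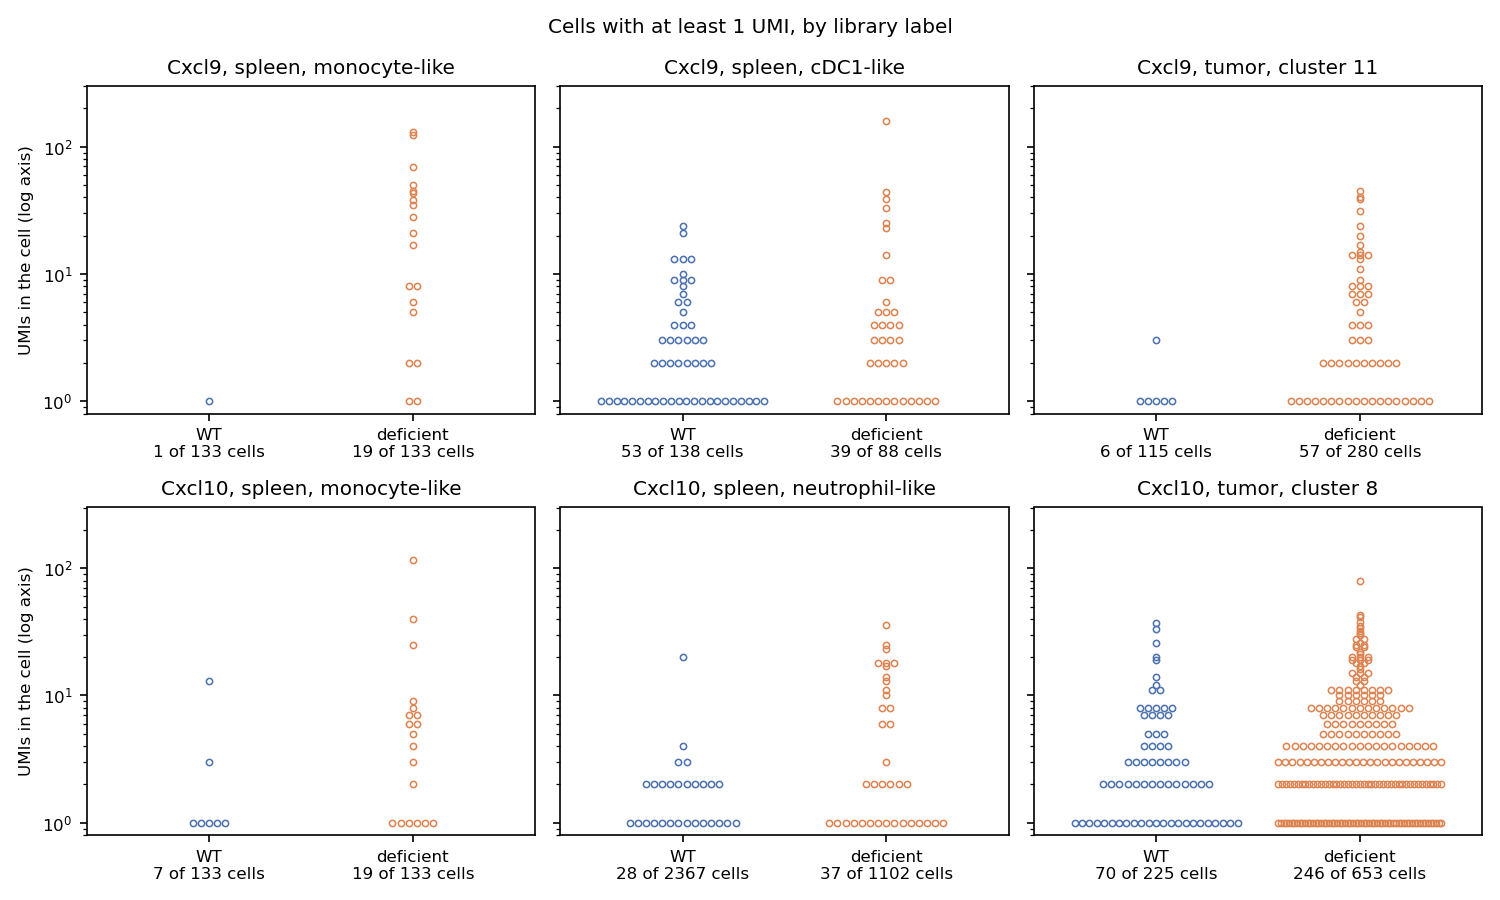
UMIs of Cxcl9 or Cxcl10 in each cell that had any (y axis, log scale) in selected populations of spleen and tumor, by library. The spleen monocyte-like panel for Cxcl9 has 1 dot in the library labelled WT and 19 in that labelled deficient, with the highest at 130 UMIs.

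Both ligands met in some of the same cells. In monocyte-like cells of the spleen library labelled deficient, 9 of the 19 cells with Cxcl9 also had Cxcl10 (47.4%), against 8.77% of the cells without Cxcl9. In cDC1-like cells all 4 cells with Cxcl10 had Cxcl9 in each library. Among the Cxcl9-positive cDC1-like cells, 35 of 53 labelled WT (66.0%) and 29 of 39 labelled deficient (74.4%) also had Cxcl16. Cells with more UMIs in total show more genes at once, so these shares describe the cells only.

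Tumor Cxcl9 was low in the library labelled WT and was higher in the library labelled deficient, mainly in myeloid populations. Outside them, cluster 10, low in the CD45 gene Ptprc, had 0 UMIs labelled WT and 24 in 16 cells labelled deficient. Cluster 7, also low in Ptprc, had 17 and 2, and both clusters had too few UMIs to compare. The whole libraries held 153 and 914 UMIs, or 2.54 and 19.0 CPM, a ratio of 7.49 (6.31 to 8.95), where 7.38% of genes were past the fold upward. The UMIs came from 75 cells (0.942%) and 242 cells (4.02%). Cluster 11, led by the class II genes H2-Aa, H2-Ab1 and Cd74, had 8 UMIs in 6 of 115 cells labelled WT and 427 UMIs in 57 of 280 cells labelled deficient. Its levels were 15.4 CPM (6.65 to 30.3) and 267 CPM (242 to 294), a ratio of 17.4 (8.73 to 40.5), against 10.7% of genes past the fold upward. Cluster 11 held 5.23% of the Cxcl9 UMIs in the library labelled WT and 46.7% in that labelled deficient.

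The makeup of cluster 11 also differed between the libraries. Its macrophage markers summed to 5024 and 5217 CPM, its monocyte markers to 3038 and 2124 and its neutrophil markers to 3688 and 2094. The cDC1 markers summed to 119 and 221 CPM, and of them Xcr1, Clec9a, Snx22 and Gcsam were at 0 in the library labelled WT and none was at 0 in that labelled deficient. Clec9a had 0 and 28 UMIs and Xcr1 0 and 14. Whether this shift plays a part in the Cxcl9 difference was not tested.

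Tumor macrophage-like cells were named from a marker list that includes the complement genes C1qa, C1qb and C1qc. They had 79 Cxcl9 UMIs in 34 of 878 cells labelled WT and 268 in 60 of 596 cells labelled deficient. The levels were 11.8 CPM (9.32 to 14.7) and 48.0 CPM (42.4 to 54.1), a ratio of 4.08 (3.16 to 5.31), where 4.81% of 10340 genes were past the fold upward. Their level of C1qa, 1 of the markers used to name the class, was 2399 and 2475 CPM. The part of cell makeup in the Cxcl9 difference was not tested. Cluster 8, unnamed but with neutrophil markers at 59307 and 43654 CPM and led by Lcn2, Acod1, Il1a and Cd274, had 4 and 46 UMIs in 3 of 225 and 27 of 653 cells. That ratio was 3.63 (1.33 to 13.9), with 10.0% of genes past the fold upward. In the library labelled deficient the intervals of macrophage-like cells and cluster 8 overlapped (42.4 to 54.1 and 34.0 to 61.9 CPM), and cluster 11 lay above both. T cell-like cells of tumor had 0 UMIs in 87 cells labelled WT, which allows up to 3.45% of cells with a UMI and sets no limit on cells that express the gene, and 9 UMIs in 206 cells labelled deficient.

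**Figure D4:**
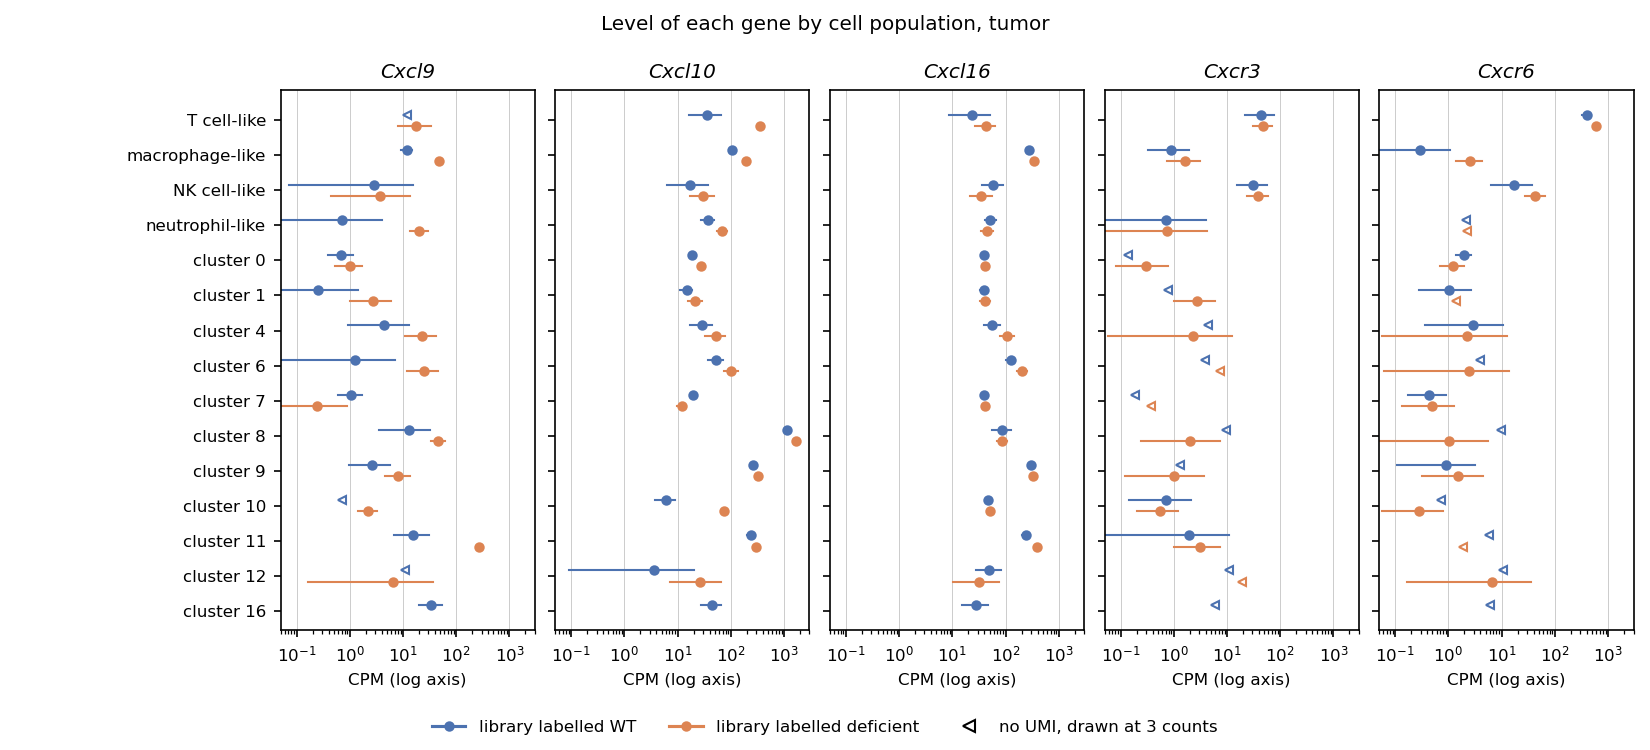
Level of each gene (CPM, log axis) in each tumor population with 95% Poisson bars, 1 symbol per library, where an open triangle marks no UMI and is drawn at the level of 3 counts. Cxcl10 was highest in cluster 8 in both libraries, at 1141 CPM labelled WT and 1674 CPM labelled deficient, and Cxcr6 in T cell-like cells, at 397 and 603 CPM.

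Tumor Cxcl10 was widespread, and its highest level lay in cluster 8 in both libraries. In that cluster 357 UMIs in 70 of 225 cells labelled WT and 1660 in 246 of 653 labelled deficient gave 1141 CPM (1025 to 1265) and 1674 CPM (1595 to 1757). The ratio of 1.47 fell short of 1.5. Cluster 8 was 2.83% of cells labelled WT and 10.8% of cells labelled deficient, and it held 13.02% and 30.1% of the Cxcl10 UMIs. Over the whole libraries, Cxcl10 had 2742 and 5513 UMIs, or 45.5 and 115 CPM, a ratio of 2.52 (2.41 to 2.64), in 8.34% and 15.8% of cells. Cluster 9, led by Mmp12, Fabp5 and Arg1, had 258 and 324 CPM, and cluster 11 had 242 and 291 CPM, both short of the fold. In the library labelled WT the intervals of clusters 9 and 11 overlapped (238 to 280 and 202 to 289 CPM).

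Macrophage-like cells of tumor had 719 Cxcl10 UMIs in 166 cells labelled WT and 1094 in 144 cells labelled deficient. Their levels were 107 and 196 CPM, a ratio of 1.83 (1.66 to 2.01). Neutrophil-like cells had 51 and 90 UMIs, a ratio of 1.85 with 5.11% of genes past the fold upward. Clusters 4 and 6, which have low depth or are led by Xist and Abca1, were at ratios of 1.85 and 1.94, with 8.07% and 8.28% of genes past the fold upward. Thinning turned the difference in cluster 4 to a log2 of -0.78. T cell-like cells, taken as the reference for background, were positive in 8.05% and 14.6% of cells. The shares were 4.82% and 5.70% in natural killer cell-like cells and 2.31% and 6.08% in neutrophil-like cells. The neutrophil level depended on how cells were assigned: the per-cell gate, with 1576 and 1747 cells, gave 205 and 525 CPM against 36.5 and 67.4 CPM by cluster.

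In those T cell-like cells there were 9 Cxcl10 UMIs in 7 cells labelled WT and 184 in 30 cells labelled deficient, a ratio of 10.2 (5.23 to 22.6) with 14.7% of genes past the fold upward. In that library, 54 of the 184 UMIs lay in 1 cell. In the same cells the neutrophil marker list summed to 436 and 816 CPM and S100a9 was at 66.2 and 272.5 CPM, beside T cell markers at 4595 and 4637 CPM. The part of these markers was not tested. Cluster 10, where Ptprc, the gene of CD45, was at only 4.02 and 2.93 CPM and Krt8, a keratin, at 1499 and 1293 CPM, had 25 Cxcl10 UMIs in 8 of 196 cells labelled WT and 796 in 88 of 432 cells labelled deficient. Its levels were 5.92 and 72.9 CPM, a ratio of 12.3 (8.29 to 19.2) with 6.37% of genes past the fold upward. The class II gene H2-Aa had 6 and 668 UMIs in this cluster. Cluster 7, also low in Ptprc, went the other way with 317 and 97 UMIs and a ratio of 0.610 (0.481 to 0.768), where 2.05% of genes were past the fold downward and 96 of the 317 UMIs lay in 1 cell. Thinning (log2 0.31) and the coarser clustering (1.31) turned its sign.

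The ligands overlapped in tumor cells too. Among macrophage-like cells with Cxcl9, 15 of 34 labelled WT and 30 of 60 labelled deficient also had Cxcl10, and 32 of 34 and 54 of 60 also had Cxcl16. In cluster 11 of the library labelled deficient, 22 of the 57 cells with Cxcl9 had Cxcl10 and 47 had Cxcl16.

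**Figure D5:**
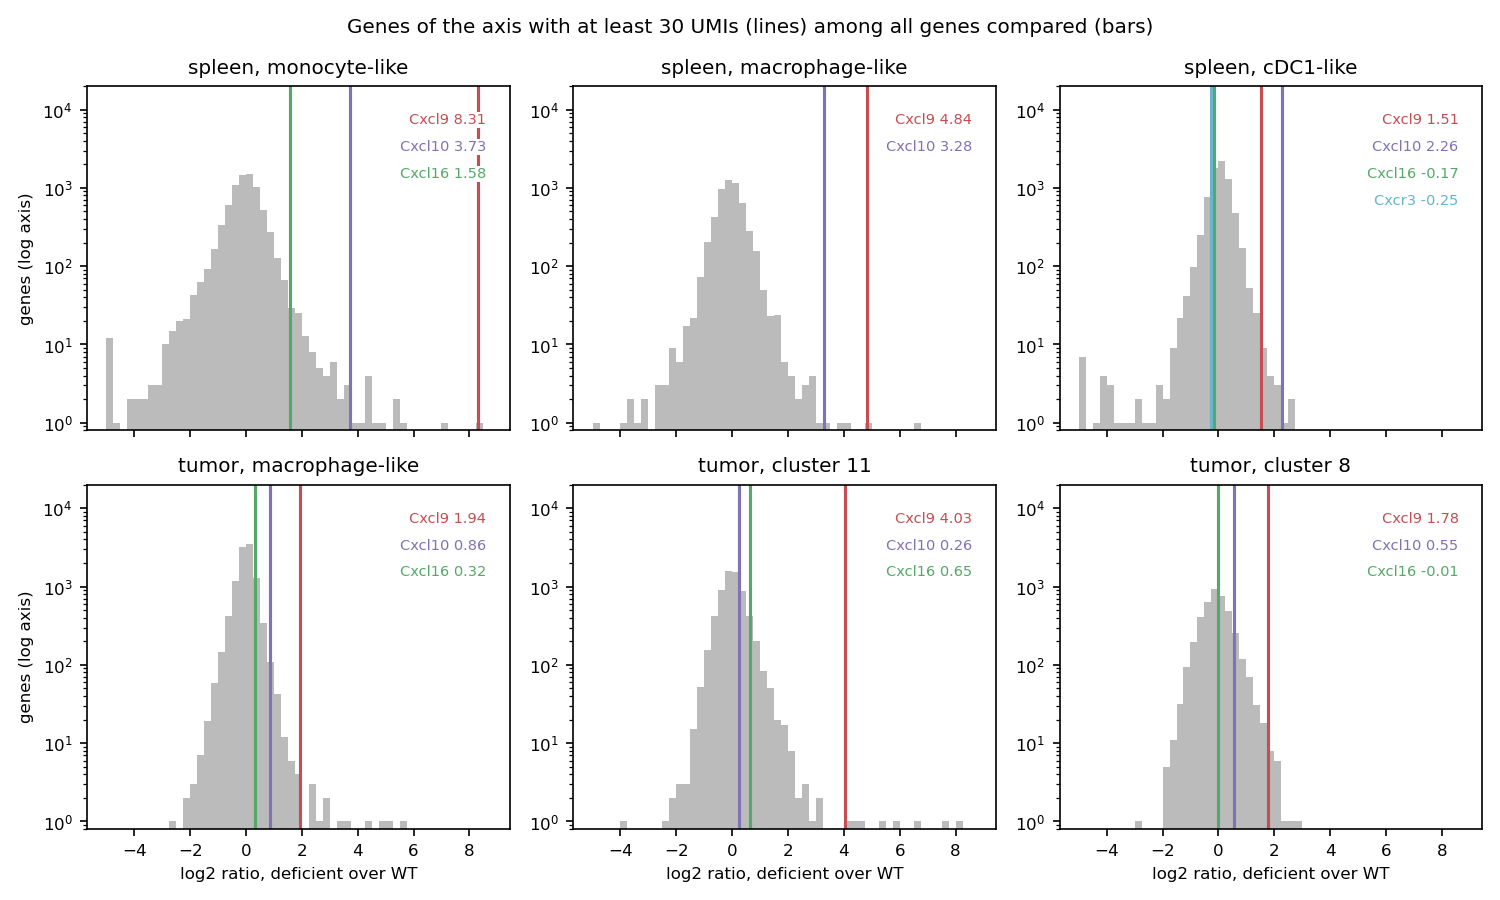
Number of genes (y axis, log scale) by log2 difference between the library labelled deficient and that labelled WT (x axis, on CPM + 1) in 6 populations, with lines at the genes of the axis that had at least 30 UMIs. The end bars hold the genes at or beyond the axis. Cxcl9 lies at 8.31 in spleen monocyte-like cells and 4.03 in tumor cluster 11, and Cxcl16 at -0.17 in spleen cDC1-like cells.

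Cxcl16, the ligand of Cxcr6, differed less between the libraries than the other ligands. In spleen it had 512 and 422 UMIs, or 13.95 and 11.8 CPM, a ratio of 0.848. The cDC1-like cells had 185 UMIs in 71 of 138 cells labelled WT and 110 in 48 of 88 cells labelled deficient, at 97.7 CPM (84.1 to 113) and 86.6 CPM (71.1 to 104), intervals that overlapped. The cDC2-like cells had 136 and 84 UMIs, at 40.4 and 32.5 CPM. Monocyte-like cells had 28 UMIs labelled WT and 71 labelled deficient, at 19.6 and 60.5 CPM, a ratio of 3.09 (1.97 to 4.97), but the per-cell monocyte gate turned the sign of this difference (log2 -0.48). T cell-like cells were at 0.682 and 0.614 CPM. Activated dendritic cell-like cells were singled out after their values were seen, as 21 cells labelled WT and 17 labelled deficient, too few to compare. All 21 and 16 of 17 had Cxcl16, with 123 and 126 UMIs, which was 24.0% and 29.9% of each library's Cxcl16.

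In tumor, Cxcl16 was carried by myeloid populations and by the clusters low in Ptprc. Macrophage-like cells had it in 630 of 878 cells labelled WT and 469 of 596 labelled deficient, with 1823 and 1890 UMIs. Their levels were 272 and 338 CPM, a ratio of 1.25, and they held 38.1% and 37.8% of the library's Cxcl16. Cluster 9 was at 303 and 331 CPM and cluster 8 at 86.3 and 85.7 CPM. Cluster 11 had 128 and 620 UMIs in 57 of 115 and 158 of 280 cells, at 246 and 388 CPM, a ratio of 1.58 (1.30 to 1.92). Clusters 4 and 6 were the other populations past the fold upward, at ratios of 1.93 and 1.64. Of the clusters low in Ptprc, cluster 0 had a UMI in 40.7% and 45.7% of cells, cluster 7 in 50.5% and 48.4% and cluster 10 in 52.6% and 58.1%, at levels of 39.3 to 50.8 CPM. They held 17.8%, 13.55% and 4.22% of the library's Cxcl16 labelled WT and 10.5%, 6.72% and 11.1% labelled deficient. Natural killer cell-like cells were at a ratio of 0.594 (0.302 to 1.16) from 21 and 19 UMIs, 10 of the 21 in 1 cell, where 10.8% of genes were past the fold downward, and the mean over cells had the other sign (log2 0.55). As a reference for background, 6.90% and 9.71% of T cell-like cells had a UMI. Neutrophil-like cells had one in 5.35% and 5.27%, at 51.6 and 45.0 CPM by cluster and at 127 and 157 CPM by the per-cell gate, which turned the order of the libraries.

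Cxcr3 in spleen was a transcript of T cells, of 3 smaller unnamed clusters with T cell markers, of natural killer cell-like cells and of cDC1-like cells. Cluster 15 had the highest level, with 108 UMIs in 65 of 135 cells labelled WT and 96 in 53 of 126 cells labelled deficient, at 268 CPM (220 to 324) and 195 CPM (158 to 239), a ratio of 0.729. Its cells had T cell markers at 4851 and 5277 CPM, Zbtb16, the transcription factor of natural killer T cells, at 201 and 232 CPM, and Ifng at 365 and 305 CPM. Cluster 12 was at 94.7 and 76.5 CPM. Cluster 21 had 99 and 147 UMIs in 24 of 84 and 30 of 80 cells, at 65.3 and 117 CPM, a ratio of 1.79 (1.38 to 2.33), which thinning reduced to a log2 difference of 0.09. T cell-like cells held 39.5% and 48.4% of the library's Cxcr3, with 229 UMIs in 155 cells labelled WT and 387 in 237 labelled deficient. Their levels were 26.0 CPM (22.8 to 29.6) and 26.4 CPM (23.8 to 29.2), a ratio of 1.02.

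In T cell-like cells and clusters 12, 15 and 21 together, per-cell gates on Cd4, Cd8a, Cd8b1 and Foxp3 were applied. They assigned part of the 3125 and 3903 cells to a kind of T cell. CD8-gated cells had Cxcr3 at 31.6 and 32.4 CPM and CD4-gated cells at 49.0 and 49.1 CPM. The 1154 and 1238 cells in no gate were lower in the library labelled deficient, at 42.7 and 28.1 CPM, a ratio of 0.659 (0.520 to 0.834). Regulatory-gated cells, which restrain other T cells, were at 70.2 CPM labelled WT (52.9 to 91.4) and 98.9 CPM in that labelled deficient, a ratio of 1.41 (1.01 to 1.98). The cDC1-like cells had Cxcr3 in 50 of 138 and 25 of 88 cells, at 39.6 and 33.1 CPM. Natural killer cell-like cells were at 19.2 and 27.4 CPM, and neutrophil-like cells, the reference for background, were positive in 0.338% and 1.27% of cells. In tumor Cxcr3 was scarce, with 33 UMIs in the library labelled WT and 82 in that labelled deficient, a ratio of 3.12. T cell-like cells had 11 and 25 of these at 42.8 and 48.3 CPM, and natural killer cell-like cells 11 and 21 at 31.1 and 38.9 CPM. These intervals all overlapped. T cell-like cells were 1.09% of tumor cells labelled WT and 3.42% of those labelled deficient, and natural killer cell-like cells 1.04% and 3.21%.

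Cxcr6 was narrower than Cxcr3. In spleen the whole libraries had 349 and 631 UMIs, or 9.51 and 17.7 CPM, a ratio of 1.86. Cluster 15 held 50.7% and 51.0% of them, with 177 UMIs in 80 of 135 cells labelled WT and 322 in 84 of 126 labelled deficient. Its levels were 439 CPM (377 to 509) and 655 CPM (585 to 731), a ratio of 1.49 (1.24 to 1.80), just short of the fold. With doublets kept, clusters 12 and 15 both matched a single cluster, in which the log2 difference was 0.027. In this cluster 45 of the cells with Cxcr3 also had Cxcr6 in the library labelled WT (69.2%) and 47 in that labelled deficient (88.7%). Cluster 21 had 23 and 61 UMIs in 10 of 84 and 15 of 80 cells, at 15.2 and 48.4 CPM, a ratio of 3.19 (1.95 to 5.40). Cluster 12 went from 65.8 CPM labelled WT to 37.7 labelled deficient, a ratio of 0.573 (0.329 to 1.01), and thinning turned the sign of this difference (log2 0.39).

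T cell-like cells of spleen had Cxcr6 at 12.2 and 13.8 CPM. By gate, CD8 cells were at 21.2 and 18.0 CPM and CD4 cells at 30.7 and 44.2 CPM. Regulatory-gated cells, high in Cxcr3, had only 1 and 3 Cxcr6 UMIs. Natural killer cell-like cells were at 6.99 and 7.04 CPM, and neutrophil-like cells had no UMI in 2367 and 1102 cells.

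Tumor Cxcr6 was held mostly by T cell-like cells, with 60.7% of the library's UMIs labelled WT and 82.3% labelled deficient. They had 102 UMIs in 37 of 87 cells and 312 in 91 of 206 cells, at 397 CPM (324 to 482) and 603 CPM (538 to 674), a ratio of 1.52 (1.21 to 1.92). The per-cell T cell gate, with 66 and 160 cells, gave 403.5 and 569.4 CPM, which is short of the fold. CD8-gated cells were at 444 and 409 CPM (26 and 43 cells) and CD4-gated cells at 619 and 984 CPM (11 and 20 cells), while 0 of 9 and 0 of 18 regulatory-gated cells had a UMI. The 41 and 125 cells in no gate had 36 and 205 of the UMIs, at 398 and 729 CPM, a ratio of 1.83 (1.28 to 2.69). Natural killer cell-like cells had 6 and 23 UMIs, at 16.9 and 42.6 CPM. Cluster 0, low in Ptprc, had 42 and 16 UMIs at 1.94 and 1.23 CPM, a ratio of 0.632 where 2.45% of genes were past the fold downward and thinning left a log2 difference of 0.038. Over the whole tumor libraries Cxcr6 was at 2.79 and 7.88 CPM, a ratio of 2.83 (2.35 to 3.41), beside the larger share of T cell-like cells.

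Bone marrow, enriched for progenitors, held few transcripts of the axis. Cxcl9 had 4 UMIs labelled WT and 26 labelled deficient, a ratio of 10.4 (3.61 to 41.0) where 7.18% of genes were past the fold upward, but 23 of the 26 UMIs lay in stem or progenitor-like cells and without the top cell of each library the log2 difference was 0.24. Cxcl10 was lower in the library labelled deficient, with 333 and 141 UMIs and 4.84 and 3.28 CPM. Cluster 6 was at a ratio of 0.427 and immature neutrophil-like cells at 0.398, where 4.52% and 7.06% of genes were past the fold downward. Cxcl16 had 44 and 25 UMIs. Cxcr3 was past the fold upward in 2 of the 2 marrow populations where it could be compared, each with a ratio interval above 1. In natural killer cell-like cells it had 15 and 34 UMIs. The levels were 39.9 CPM (22.3 to 65.7) labelled WT and 75.4 CPM (52.2 to 105) labelled deficient, intervals that overlapped. Their log2 difference was 0.904, where 367 of 4078 genes were past the fold upward. In plasmacytoid dendritic cell-like cells, the main makers of type I interferon, Cxcr3 had 4 and 27 UMIs. That ratio was 4.95 (1.72 to 19.5), with 8.26% of genes past the fold upward. These cells passed the UMI minimum mainly through the library labelled deficient. Cxcr6 was highest in cells like innate lymphoid cells of type 2, at 177 and 182 CPM from 14 and 13 UMIs, and stood at 61.1 and 57.7 CPM in natural killer cell-like cells.

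Genes linked to interferon gamma were read from lists. Whether interferon gamma or another interferon lay behind their levels was not tested. Of 17 genes that interferon gamma induces, 14 could be compared in spleen monocyte-like cells and 14 were past the fold upward, with a median log2 difference of 2.02 against -0.02 over all genes. Gbp2, a guanylate-binding protein, had 44 and 310 UMIs at 30.8 and 264 CPM, and Cd274, the gene of PD-L1, was at 18.9 and 120 CPM. Irf1, a transcription factor downstream of the interferon gamma receptor, was at 56.7 and 233 CPM, 4.12-fold. In neutrophil-like cells 11 of 12 were higher and 1 lower (median 1.59), in macrophage-like cells 8 of 12 (1.43), in cDC1-like cells 4 of 6 (1.35) and in cDC2-like cells 6 of 13 (0.38), whereas 1 of 14 was higher in T cell-like cells (0.19). The genes past the fold downward were 7.38% of all in neutrophil-like cells. In B cell-like cells 6 of 12 were higher (0.48), where 4.72% of genes were past the fold upward. In natural killer cell-like cells 1 of 10 was higher (0.24), where 9.49% of genes were. In cluster 21, 9 of 12 were higher and 1 lower (0.79), where 9.28% of genes were past the fold downward, and in cluster 12 none of 11 was higher and 3 were lower (-0.28), where 11.6% of genes were past the fold upward. In tumor, 10 of 14 were higher in macrophage-like cells (median 0.72), 10 of 15 with 1 lower in cluster 11 (0.74), 10 of 13 in cluster 8 (1.16), 15 of 16 in cluster 10 (1.44), 9 of 13 in neutrophil-like cells (0.82) and 9 of 11 in T cell-like cells (0.98). In cluster 11, 8.06% of genes were past the fold downward. In cluster 9, a main carrier of Cxcl10, 1 of 14 was higher (0.10), where 4.11% of all genes were. In the clusters low in Ptprc the counts were 10 of 13 in cluster 1 (1.29), 6 of 14 in cluster 0 (0.45) and 3 of 14 in cluster 7 (0.21), with 7.83%, 3.48% and 4.83% of genes past the fold upward.

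The genes upstream of the ligands were mixed. Of 6 inducers of interferon gamma, 3 of the 4 that could be compared were higher in spleen monocyte-like cells, among them Il18 at 11.2 and 43.4 CPM and Il27 at 4.90 and 23.9 CPM. In spleen neutrophil-like cells 2 of 5 were higher and 2 lower. In tumor cluster 11, 2 of 4 were higher and 1 lower. There Il12b, a subunit of interleukin 12, had 0 and 100 UMIs, and Il18 was the lower one, at 55.8 and 32.5 CPM. Ifng itself was at 33.0 and 366 CPM in spleen cluster 21, at 64.9 and 156 CPM in tumor natural killer cell-like cells and at 195 and 94.7 CPM in tumor T cell-like cells. Of the genes of ligand processing, Adam17 was 1.65-fold and Adam10 0.666-fold in spleen monocyte-like cells and Dpp4, a protease that trims CXCL10, 1.02-fold.

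Among the cells that carry the receptors, the type 1 lymphocyte list of 13 genes had 9 of 12 higher in spleen cluster 21 (median log2 1.61), with Ccl5, a chemokine, at 23.1 and 325 CPM and Gzmb, a killing protease, at 5.94 and 81.7 CPM. In the same cluster the natural killer cell list summed to 37.6 and 374.6 CPM with 4 of its 10 markers at 0 in each library, the T cell list to 2158 and 3563, the B cell list to 1306 and 1033 and the neutrophil list to 2112 and 333, and their part was not tested. In tumor T cell-like cells 2 of 10 were higher and 3 lower, where 10.2% of genes were past the fold downward. In tumor natural killer cell-like cells 4 of 12 were higher (median 0.34), where 13.8% of genes were past the fold upward. In the T cell-like cells Ccl5 was at 370 and 1341 CPM and Prf1, perforin, at 436 and 69.6 CPM. Of the list of 11 genes of tissue residence, 5 of 7 were higher in tumor T cell-like cells (median 0.75), with Itgae, an integrin of resident T cells, at 2 and 33 UMIs and Cd69, which retains T cells in tissue, at 311.5 and 566 CPM. In spleen cluster 15 none of the 8 that could be compared was past the fold upward, where 10.3% of all genes were. In cluster 12, 1 of 5 was higher and 4 were lower (median -0.75), and in cluster 21, 4 of 6 were higher (1.30).

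Over the 55 levels of spleen and tumor populations, the genes whose level was most like each member were named as a description, by Pearson's r of log2(CPM + 1) among 13951 genes. The levels share libraries and depth, and no test was made. Cxcl9 was nearest to Aif1 (0.735), a macrophage gene, and to Slamf8 (0.719). For Cxcl10 the nearest were Sod2 (0.814), the mitochondrial superoxide dismutase, and Irgm1 (0.809), an interferon-induced GTPase. The nearest to Cxcl16 was Tubb6 (0.903), to Cxcr3 Cd226 (0.925) and to Cxcr6 Tnfrsf25 (0.890). Between the members, Cxcl9 and Cxcl10 stood at 0.627 and Cxcr3 and Cxcr6 at 0.808.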

How the data were processed

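Whole-number UMI counts per gene and barcode were deposited by the authors, per the file headers, which give Cell Ranger 6.1.0. Version 6.0.0 and mm10 stand in the submitters' processing notes. Kits for either transcript end are named in the labels' protocols, so the end that was read is unsettled. Barcodes were kept with at least 300 genes, 500 UMIs and at most 10% mitochondrial UMIs. Doublets were scored against simulated doublets and removed at 0.8% per 1000 barcodes. Cells of a tissue were scaled to 10000 and clustered together with scanpy 1.11.5 and leidenalg 0.10.2 (2000 variable genes, 30 components, 15 neighbours, resolution 1). Clusters were named from markers: at least 3 detected, each in 10% of cells and 1.5-fold above the median cluster, and leading among the 10 top genes. These thresholds were chosen with the data in view, and the members and gene lists were chosen with earlier results of these data known.

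UMIs were summed per population and given as CPM with exact Poisson intervals, shares with Clopper-Pearson intervals, and ratios with exact conditional intervals, using Python 3.11.15 and scipy 1.17.1. With 1 library per group there was no test. Log2 differences add 1 CPM, which understates those of low levels. A count of 0 allows up to 3 counts. The calculation was tested on simulated data. Named genes are the members, Ifng and Irf1, the genes of 5 lists with the most UMIs in a population (ligand processing, genes induced by interferon gamma, its inducers, type 1 lymphocytes, tissue residence), and the genes most like each member. The Cxcl11 gene of the processing list is not analysed here, and 1 further list is not reported here. Alternatives covered filters, doublets, resolution, per-cell marker gates, scaling, thinning, the top cell and the pseudocount.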

Additional observations from a re-analysis of the deposited data

How the results depend on the processing

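Differences below are log2 of the library labelled deficient over that labelled WT. Those past the fold kept their sign under every alternative except the following. Thinning to 1000 UMIs turned Cxcl10 in tumor clusters 4 (-0.78) and 7 (0.31), Cxcl16 in tumor natural killer cell-like cells (5.95) and Cxcr6 in spleen cluster 12 (0.386) and tumor cluster 0 (0.038). The coarser resolution turned Cxcl10 in spleen cluster 12 (0.73) and tumor cluster 7 (1.31). Without the top cell, Cxcl10 in spleen cluster 21 was at -0.54. By the per-cell gate, Cxcl16 in spleen monocytes was at -0.48, also with 20% mitochondrial UMIs allowed. Doublets kept turned Cxcr6 in spleen cluster 12 (0.027), and the mean over cells turned Cxcl16 in tumor natural killer cell-like cells (0.55).

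Other differences kept their sign, except where given, and moved beyond their counting interval. Only those of the results chosen as the main ones are listed. For the other results, 45 values of differences past the fold and 21 of differences short of it also moved and are not listed. Median-of-ratios scaling, which shifted the whole spleen libraries by -0.22, gave 2.01 for Cxcl9, 1.41 for Cxcl10, -0.42 for Cxcl16, 0.27 for Cxcr3 and 0.63 for Cxcr6. Thinning gave 2.42 for Cxcl9 and 0.44 for Cxcr6 in all spleen cells, 7.28 for Cxcl10 in spleen monocytes, 3.02, 1.82 and 2.15 for Cxcl9, Cxcl10 and Cxcr6 in all tumor cells, and 1.13 and -0.92 for Cxcl9 and Cxcl10 in marrow. It also gave 0.38 for Cxcl16 in spleen cDC1-like cells, which is the other sign to the -0.17 without thinning. The gate gave 6.31 for Cxcl9 and 2.03 for Cxcl10 in spleen monocytes (6.30 and 2.02 with 20% mitochondrial UMIs). A pseudocount of 0.1 CPM gave 9.40 for Cxcl9 in spleen monocyte-like cells, 2.86, 1.48 and 1.47 for Cxcl9, Cxcr3 and Cxcr6 in tumor, and 2.15, 1.49 and 0.86 for the same genes in marrow. Doublets kept gave 0.027 for Cxcr6 in spleen cluster 15, 5.27 for Cxcl9 and 0.24 for Cxcl16 in tumor cluster 11, and 1.45 for Cxcl10 and 0.45 for Cxcl16 in all tumor cells. All barcodes gave 1.46 and 0.45 for these last values. The coarser resolution gave 2.85 for Cxcl9 and 0.32 for Cxcl16 in tumor cluster 11 and 1.64 for Cxcl10 in cluster 8. Without the top cell, Cxcl9 in marrow was at 0.24. The cause was not tested, and the gate gives no value for unnamed clusters. The share of genes past the fold had a median over populations of 16.9% in spleen and 17.6% in tumor, of 3.96% and 3.98% at 2-fold, and of 44.8% and 45.3% with a minimum of 1 UMI. No paired analysis was possible because each group had 1 library. Depth limits the sparse sums, such as Cxcr3 in tumor with 33 UMIs and Cxcl9 in marrow with 4 UMIs labelled WT.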
